A study of Mus musculus with 16 samples.

Results

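Paneth cells are secretory cells at the base of the small intestinal crypts, and 6 of their antimicrobial products were followed here out of the 24421 genes in the count files. These were *Lyz1*, *Mmp7*, *Ang4*, *Pla2g2a*, *Itln1* and *Defa24*, found in the files by gene symbol and chosen with earlier results of these data known. The RNA came from epithelium that EDTA released from the jejunum and ileum of wild-type C57BL6/J mice, at postnatal day 6 (P6, before weaning) and day 36 (P36, after weaning). There were 4 mice of each age, 2 male and 2 female, each mouse gave a jejunal and an ileal library, and the 16 libraries thus formed 4 groups of 4. No mouse carried a transgene or was treated. Each P6 mouse label began with L41800 (2 mice) or L42150 (2 mice). The labels do not say what these prefixes stand for. The P36 labels all began with AA.

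Paneth cells store their products in apical granules and release them into the crypt lumen, where they act on bacteria and shape the microbiota near the stem cells. *Lyz1* encodes the Paneth cell lysozyme, which cuts bacterial peptidoglycan. *Defa24* is one of the alpha-defensins (cryptdins), small cationic peptides that permeabilise bacterial membranes, and *Mmp7* encodes matrilysin, the protease that converts mouse pro-cryptdins to their active form. *Ang4* belongs to the ribonuclease A family and has bactericidal activity. *Pla2g2a* encodes a secreted phospholipase that hydrolyses bacterial phospholipids, and the C57BL/6 strain carries an inactivating frameshift in this gene, which RefSeq lists as a transcribed pseudogene. *Itln1* encodes intelectin, a lectin that binds microbial sugars and is also made by goblet cells. In the mouse, mature Paneth cells appear in the weeks after birth.

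On mm10, *Lyz1* lies at chr10:117287795-117292868 on the minus strand, *Mmp7* at chr9:7692111-7699416 on the plus strand, and *Ang4* at chr14:51763892-51773590 on the minus strand. *Pla2g2a* lies at chr4:138831857-138835189 on the plus strand, inside the span of its paralogue *Pla2g5* (chr4:138799247-138863469, minus strand). *Itln1* lies at chr1:171518124-171535294 on the minus strand and *Defa24* at chr8:21734494-21735471 on the plus strand. Fragments were counted over exons by strand, and only where they mapped to 1 place. Near-identical copies could therefore lower or misplace a count. Of the distinct 100-base windows in the GENCODE transcripts of each gene, 2.06% of the *Lyz1* windows also occurred in *Lyz2*, 2.58% of the *Mmp7* windows occurred in 1 other gene, and none of the windows of the other 4 genes did. With 50-base windows the share rose to 16.1% for *Lyz1* and 28.1% for *Defa24*, the latter spread over 9 other genes, so the *Defa24* counts are the least certain of the 6.

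Start regions of *Lyz1*, *Mmp7* and *Itln1* are shown because the first 2 genes rose together with age while *Itln1* differed between the P6 mice. RefSeq start regions (GRCm38.p6) were available for 4 of the 6 genes. Each sequence runs 5′ to 3′ from 250 bases before the start site to 30 bases after it, at chr10:117292839-117293118 (minus strand), chr9:7691840-7692119 (plus strand) and chr1:171535265-171535544 (minus strand). Capitals mark a TATA box (TATAAA), a TCF/LEF motif (ATCAAAG) or the E-box CAGCTG, searched on both strands.
Lyz1: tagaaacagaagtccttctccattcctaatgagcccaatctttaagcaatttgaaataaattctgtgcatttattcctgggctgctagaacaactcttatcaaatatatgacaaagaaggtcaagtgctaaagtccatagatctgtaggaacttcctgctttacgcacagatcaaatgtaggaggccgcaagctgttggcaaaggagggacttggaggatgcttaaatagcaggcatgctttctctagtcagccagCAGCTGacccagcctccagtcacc
Mmp7: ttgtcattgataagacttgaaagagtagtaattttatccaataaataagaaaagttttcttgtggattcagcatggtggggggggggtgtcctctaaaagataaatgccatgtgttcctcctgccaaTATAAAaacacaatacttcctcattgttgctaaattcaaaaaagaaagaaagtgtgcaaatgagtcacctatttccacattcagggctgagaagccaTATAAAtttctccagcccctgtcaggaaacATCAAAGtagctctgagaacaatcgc
Itln1: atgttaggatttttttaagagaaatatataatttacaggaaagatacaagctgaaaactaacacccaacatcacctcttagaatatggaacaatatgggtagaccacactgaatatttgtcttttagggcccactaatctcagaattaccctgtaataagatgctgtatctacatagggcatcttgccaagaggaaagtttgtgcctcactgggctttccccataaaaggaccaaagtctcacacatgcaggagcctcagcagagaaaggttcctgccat
The *Mmp7* region held TATAAA starting 26 bases and 123 bases before the start site and ATCAAAG starting 4 bases after it. The *Lyz1* region held CAGCTG starting 6 bases after the start site. The *Itln1* region held none of these 3 motifs, and neither did that of *Ang4*. Among all 32851 RefSeq start regions, which run 20 bases further, 13.6% held the TATA letters, 3.73% the TCF/LEF letters and 16.3% the E-box, and the motifs did not overlap in these regions. These are letter matches only.

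Libraries held between 12159237 and 25947276 counts. Levels are given as CPM, the count divided by the effective library size and expressed per 1000000 counts, after TMM scaling, with counts beside the low ones. All 6 genes passed the low-count filter that left 13429 genes to test. Across all genes tested, the median log2 fold change was within 0.05 of 0 in every comparison between groups. A gene is said to have passed at a Benjamini-Hochberg adjusted p below 0.05 in edgeR's quasi-likelihood test, and to have been called if its log2 fold change was also above 2 in size. Epithelial markers summed to between 4000 and 6499 CPM in the P6 libraries and to between 10846 and 16356 CPM in the P36 libraries. Stromal markers summed to 415 CPM in P6 ileum replicate 2 and to at most 44.2 CPM in the others. In these bulk samples, fewer Paneth cells and less RNA per Paneth cell cannot be told apart. By the paper's methods, the EDTA incubation could last longer for P36 than for P6 tissue. A different yield of crypts with age cannot be told apart from these either.

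**Figure D1:**
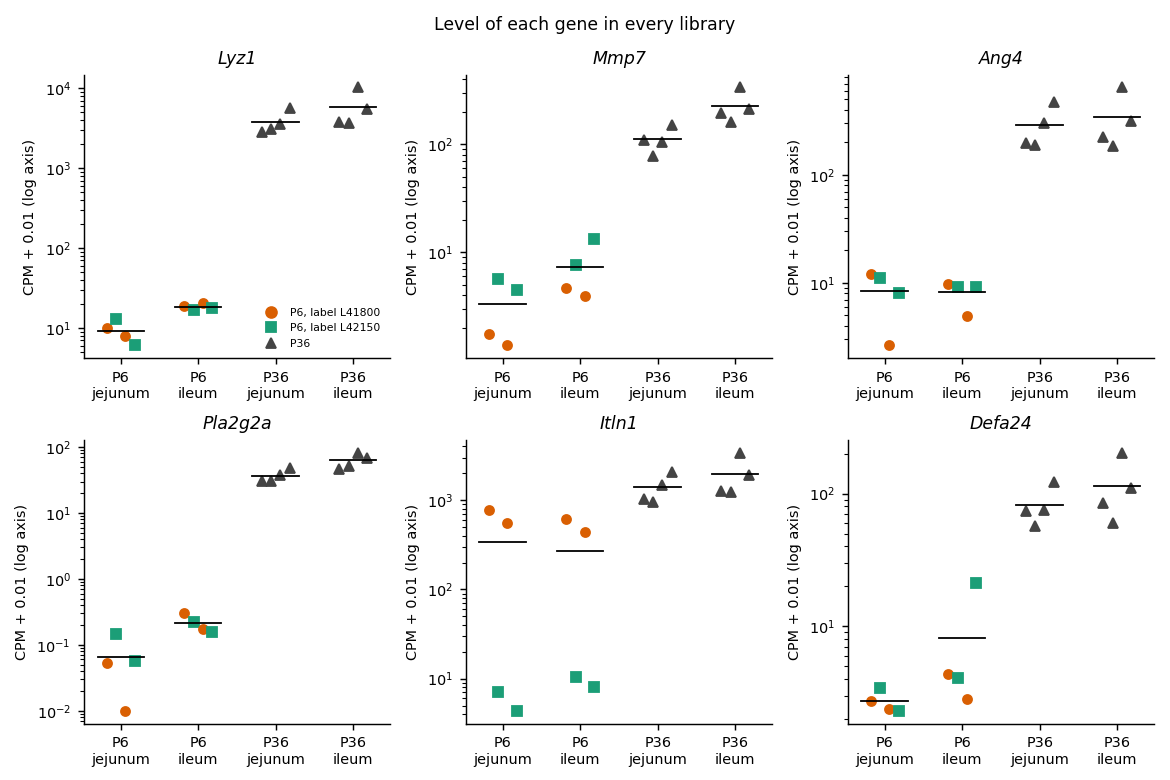
Level of each of the 6 genes in every library, as CPM plus 0.01 on a log axis. Each symbol is 1 library, lines are group means (n = 4), and P6 symbols are split by label prefix. The P36 libraries lie above the P6 libraries for each gene, and *Itln1* alone splits widely at P6.

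Age was the dominant difference. *Lyz1*, *Mmp7*, *Ang4*, *Pla2g2a* and *Defa24* were called higher at P36 in the jejunum, and the same 5 in the ileum. *Pla2g2a*, with at most 6 counts in a P6 library, passed the low-count filter only through its P36 level. Its direction with age was therefore not open. Among all tested genes, the share called higher at P36 was 7.86% in the jejunum and 6.40% for ileal libraries. The sixth gene, *Itln1*, did not pass in either region by edgeR, and by DESeq2 it passed in the ileum alone. In both regions the lowest P36 library exceeded the highest P6 library for all 6 genes, a pattern shown by 30.9% of tested genes for the jejunum and 20.8% for the ileum. Together the 6 genes took 0.00228% to 0.0715% of a library's counts at P6 and 0.397% to 1.68% at P36.

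Lysozyme led this change in absolute terms. *Lyz1* measured 10.0, 13.1, 7.82 and 6.03 CPM in P6 jejunum replicates 1 to 4 and 18.9, 16.9, 20.3 and 17.7 CPM in the P6 ileum. At P36 it measured 2854, 3082, 3548 and 5725 CPM in the jejunum and 3799, 3672, 10235 and 5505 CPM in the ileum. Its jejunal mean went from 9.25 ± 3.05 to 3802 ± 1314 CPM and its ileal mean from 18.5 ± 1.49 to 5803 ± 3071 CPM (SD, n = 4). The log2 fold change was 8.68 ± 0.46 (SE, adjusted p = 3.35e-10) in the jejunum and 8.30 ± 0.45 (SE, adjusted p = 5.95e-10) in the ileum, both by edgeR. It made up 1.24% to 35.0% of the 6 genes' summed CPM in the P6 libraries and 63.7% to 70.2% in the P36 libraries.

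The alpha-defensin and its activating protease both rose in each region. *Defa24* measured 2.75, 3.44, 2.36 and 2.298 CPM in the P6 jejunum, from 45 to 77 counts a library. In the P6 ileum it measured 4.39, 4.09, 2.82 and 21.2 CPM, with replicate 4 standing 5.63-fold above the mean of the other 3. At P36 it measured 74.1, 56.5, 74.8 and 123 CPM in the jejunum and 84.6, 60.3, 203 and 110.3 CPM in the ileum. Its log2 fold change was 4.91 ± 0.61 (SE, adjusted p = 5.78e-06) in the jejunum and 3.82 ± 0.57 (SE, adjusted p = 3.74e-05) in the ileum, by edgeR. Without P6 ileum replicate 4 the ileal value was 4.92 (adjusted p = 1.4e-07), still called.

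*Mmp7* measured 1.75, 5.67, 1.37 and 4.45 CPM in the P6 jejunum and 4.64, 7.58, 3.90 and 13.2 CPM in the P6 ileum. At P36 it measured 109, 78.1, 105 and 149 CPM in the jejunum and 196, 159, 334 and 211 CPM in the ileum. The P6 values spread over several-fold, in an order that followed the label prefix, while all P36 values lay far above them. The edgeR log2 fold change was 5.05 ± 0.50 (SE, adjusted p = 4.03e-07) in the jejunum and 4.94 ± 0.49 (SE, adjusted p = 4.46e-07) in the ileum.

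*Ang4*, the ribonuclease, measured 12.0, 11.0, 2.63 and 8.14 CPM in the P6 jejunum and 9.68, 9.22, 4.88 and 9.12 CPM in the P6 ileum. The low value in both regions came from replicate 3, which was the same mouse. At P36 it measured 198, 190, 304 and 471 CPM in the jejunum and 225, 185, 645 and 315 CPM in the ileum. The edgeR log2 fold change was 5.10 ± 0.53 (SE, adjusted p = 7.63e-07) in the jejunum and 5.38 ± 0.54 (SE, adjusted p = 4.97e-07) in the ileum.

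*Pla2g2a*, the phospholipase gene, was nearly undetected at P6. It had 1, 3, 0 and 1 counts in the P6 jejunum and 6, 5, 3 and 3 counts in the P6 ileum, which is at most 0.296 CPM. At P36 it measured 30.2, 30.1, 38.1 and 48.4 CPM in the jejunum and 47.1, 52.4, 82.1 and 68.7 CPM in the ileum. Its edgeR log2 fold change of 9.15 ± 0.40 (SE, adjusted p = 6.19e-11) in the jejunum was the 24th highest of all tested genes, and that in the ileum was 8.20 ± 0.35 (SE, adjusted p = 6.52e-11). The jejunal size rests on 5 counts in all 4 P6 libraries.

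*Itln1* was the exception. It measured 782, 7.09, 557 and 4.36 CPM in the P6 jejunum and 620, 10.3, 435 and 8.09 CPM in the P6 ileum. At P36 it measured 1042, 954, 1495 and 2071 CPM in the jejunum and 1252, 1229, 3402 and 1930 CPM in the ileum. Replicates 1 and 3 at P6 were thus near the P36 range, whereas replicates 2 and 4 were at about the level of *Ang4*. The edgeR log2 fold change was 2.04 ± 1.35 (SE, adjusted p = 0.225) in the jejunum and 2.86 ± 1.40 (SE, adjusted p = 0.0936) in the ileum, and neither passed. DESeq2 gave 2.05 (adjusted p = 0.18) in the jejunum and called the ileal change at 2.88 (adjusted p = 0.0482). The adjusted p in the ileum ran from 0.0708 to 0.174 with a library left out, by edgeR.

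**Figure D2:**
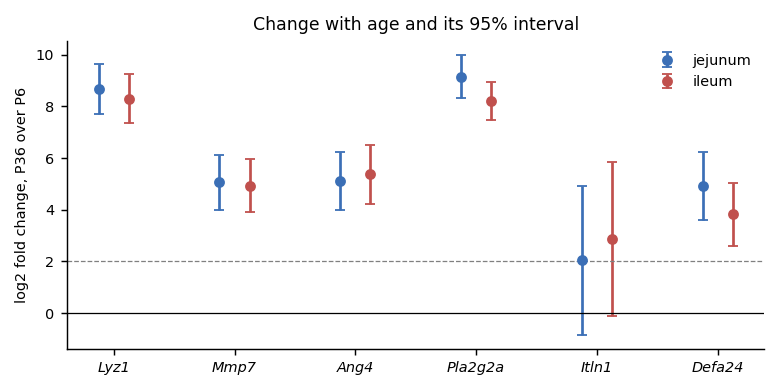
Log2 fold change from P6 to P36 for the 6 genes in each region, from the edgeR fit over all 16 libraries. Points are estimates, bars are 95% intervals, and the dashed line is the minimum of 2 for a call. The intervals of *Itln1* include 0 in both regions and those of the other 5 genes lie above 2.

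The split of *Itln1* at P6 followed the label prefix. All 4 libraries of the L41800 mice held between 8020 and 17936 *Itln1* counts, and all 4 of the L42150 mice held between 91 and 239. In CPM the mean of the L41800 mice was 117-fold that of the L42150 mice in the jejunum and 57.4-fold in the ileum. With both regions summed per mouse, the level was 503 and 709 CPM in the L41800 mice against 8.38 and 6.01 CPM in the L42150 mice, a fitted ratio of 84.1. This split was known when the gene was chosen and is given as a description. Each prefix held 1 male and 1 female mouse, so sex did not follow it. In the P6 jejunum the 9 goblet cell markers summed to 1766 and 2369 CPM in the L41800 mice against 1871 and 2153 CPM, which overlapped. In the P6 ileum they summed to 3622 and 4209 CPM against 2088 and 3621 CPM, apart by a narrow margin. Some other marker lists separated the prefixes in 1 region only. In the P6 jejunum the 11 other Paneth cell products summed to 583 and 640 CPM in the L41800 mice against 277 and 387 CPM in the L42150 mice. There the 9 stem and crypt markers summed to 1037 and 1155 CPM against 768 and 771 CPM, and pancreatic acinar markers to 268 and 302 CPM against 108 and 133 CPM. In the P6 ileum stromal markers summed to 18.9 and 22.0 CPM in the L41800 mice against 44.2 and 415 CPM. None of these 4 lists separated the prefixes in the other region. Epithelial markers did so in the ileum alone, at 6482 and 6499 CPM in the L41800 mice against 4000 and 6147 CPM. T cell markers, the other alpha-defensins and the paralogues of the 6 genes summed higher in the L42150 mice in both regions. The T cell markers summed to 3.41 and 3.45 CPM against 6.56 and 8.28 CPM in the jejunum. In the ileum they summed to 0.839 and 1.30 CPM against 2.80 and 5.30 CPM. The defensins lay closer, at 37.4 and 37.5 CPM against 39.1 and 40.1 CPM in the ileum. The part of these cell types and genes in the *Itln1* difference was not tested.

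Against the P6 mice of a single prefix, the age change of *Itln1* took 2 very different sizes. With only the L41800 mice at P6, the log2 fold change from edgeR was 1.05 in jejunal and 1.89 in ileal libraries. With only the L42150 mice at P6, it was 7.96 and 7.76. In mean CPM, the P36 libraries stood 243-fold (jejunum) and 212-fold (ileum) above the L42150 mice for *Itln1*, and 397-fold and 335-fold above them for *Lyz1*. These values follow the split by which the gene was chosen and carry no test. The prefix and anything else that separates these mice cannot be told apart.

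The other genes were compared between the prefixes on counts summed per mouse, 2 mice against 2. Of 13916 genes tested in this way, 0.647% passed, and none of the 4 remaining genes that could be tested did. By edgeR, 1480 of the 13916 genes had an unadjusted p below 0.05. *Mmp7* went the opposite way to *Itln1*, at 2.65 and 3.11 CPM in the L41800 mice and 6.38 and 8.53 CPM in the L42150 mice. The mice did not overlap, but the log2 fold change of 1.37 ± 0.28 (SE) had an adjusted p of 0.098. It was 3.25-fold higher in the L42150 jejunum and 2.44-fold higher in the L42150 ileum. *Defa24* differed by 1.27 ± 0.50 (log2, SE, adjusted p = 0.411), with only mouse L42150-2 high. Without that mouse (replicate 4) the difference was 0.27, and without replicate 2, the other L42150 mouse, it was 1.87. Each of these fits left a single L42150 mouse, so only the size is given. The log2 differences of *Ang4* and *Lyz1* were 0.29 (adjusted p = 0.865) and -0.13 (adjusted p = 0.878). *Pla2g2a* had too few counts to be tested between the prefixes.

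**Figure D3:**
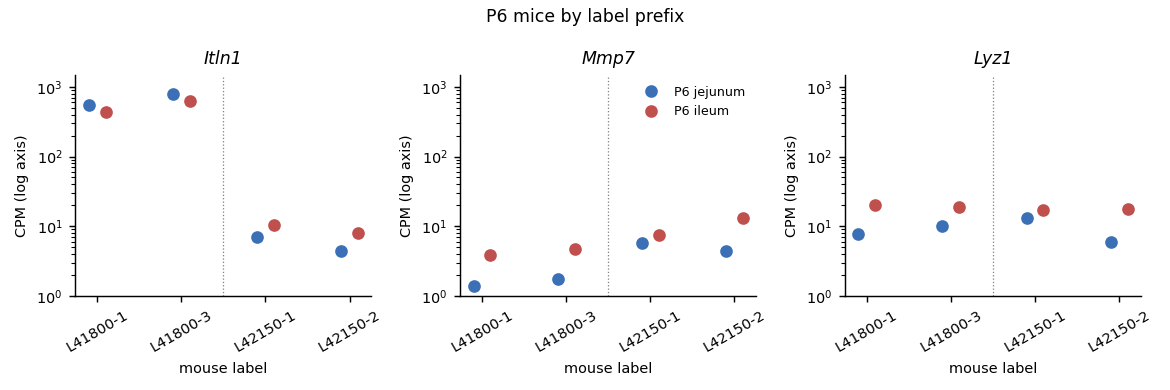
CPM of *Itln1*, *Mmp7* and *Lyz1* in the 4 P6 mice, on a log axis, with 1 point per library and the label prefixes divided by a dotted line. *Itln1* is 435 to 782 CPM in the L41800 mice and 4.36 to 10.3 CPM in the L42150 mice, *Mmp7* is higher in the L42150 mice, and *Lyz1* shows no such split.

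Between regions, the levels differed far less than between ages, and none of the 6 genes was called. The background of genes called higher in the ileum was 4.30% at P6 and 1.55% at P36. At an adjusted p below 0.05 alone, 3 of the 6 genes were higher in the P6 ileum, where 14.8% of tested genes passed. Without the adjustment, 4 of the 6 had p below 0.05 at P6 and 2 at P36, by edgeR and by DESeq2 alike. The share of all tested genes at that level is not given for any region comparison here, so these counts have no background. *Lyz1* was higher by 1.00 ± 0.34 (log2, SE, adjusted p = 0.0395), in 4 of 4 mice. *Pla2g2a* was higher by 1.72 ± 0.59 (log2, SE, adjusted p = 0.0412) in 4 of 4 mice, on 17 ileal counts against 5 jejunal counts. *Defa24* was higher by 1.58 ± 0.56 (log2, SE, adjusted p = 0.0482) in 4 of 4 mice, but without P6 ileum replicate 4 the value was 0.47 (adjusted p = 0.406). *Mmp7* was higher in 4 of 4 mice by 1.15 ± 0.45 (log2, SE, adjusted p = 0.0701). *Ang4* and *Itln1* were each higher in the ileum in 2 of 4 mice, and neither passed.

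These regional differences at P6 were near the threshold. The number of genes that passed fell from 3 to 1 without P6 ileum replicate 1, 2 or 4, and to 0 without P6 jejunum replicate 1, 3 or 4. With each mouse as a block, since both regions came from the same mice, *Mmp7* passed at 1.20 (log2, adjusted p = 0.00623) and *Defa24* did not at 1.09 (log2, adjusted p = 0.13), both by edgeR.

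At P36 only *Pla2g2a* passed between regions, where 7.80% of tested genes passed higher in the ileum. It was higher in the ileum by 0.77 ± 0.23 (log2, SE, adjusted p = 0.0334) in 4 of 4 mice. *Pla2g2a* no longer passed without P36 ileum replicate 3 or 4, or without P36 jejunum replicate 1, 2 or 3. The adjusted p by edgeR was then up to 0.118. *Mmp7* was higher by 1.03 ± 0.41 (log2, SE, adjusted p = 0.109) in 4 of 4 mice. In the fit with each mouse as a block it passed at 1.01 (log2, adjusted p = 0.013). The other 4 genes differed by 0.24 to 0.61 on the log2 scale, with adjusted p from 0.24 to 0.857. Whether the regional difference itself changed with age was tested as an interaction, which 8.69% of all genes passed. None of the 6 did by edgeR, at adjusted p from 0.381 to 0.926, and none had an unadjusted p below 0.05, in edgeR or in DESeq2.

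Per kilobase of exon, the order of the genes changed with age. In the P36 ileum *Lyz1* led at 4587 ± 2427 CPM per kb, followed by *Itln1* at 1715 ± 895 and *Ang4* at 493 ± 301. Next came *Defa24* at 274 ± 149, *Mmp7* at 256 ± 86.7 and *Pla2g2a* at 78.8 ± 20.0 CPM per kb (SD, n = 4). The order was the same in the P36 jejunum, from 3006 ± 1039 for *Lyz1* to 46.3 ± 10.9 CPM per kb for *Pla2g2a*. *Defa24* and *Mmp7*, neighbours in this order, overlapped in the P36 ileum, where *Defa24* was the higher in 2 of 4 libraries. In the P36 jejunum *Defa24* was the higher in 4 of 4 libraries, by 1.43-fold to 1.73-fold. In the P6 jejunum *Itln1* came first at 296 ± 346 CPM per kb, on the strength of the L41800 mice, and *Ang4* followed at 12.2 ± 6.08. *Lyz1* at 7.31 ± 2.41, *Defa24* at 6.47 ± 1.25 and *Mmp7* at 3.77 ± 2.38 CPM per kb overlapped there, although *Defa24* exceeded *Mmp7* within each of the 4 libraries, and *Pla2g2a* was last at 0.0710 ± 0.0706.

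Within the P36 groups the 6 genes moved together. P36 ileum replicate 3 was 1.46-fold (*Pla2g2a*) to 2.67-fold (*Ang4*) above the mean of the other 3 ileal libraries for every one of the 6. P36 jejunum replicate 4 was 1.48-fold (*Pla2g2a*) to 2.04-fold (*Ang4*) above the other 3 jejunal libraries. Over the 8 P36 libraries, the 15 pairwise Pearson correlations of log2 CPM, as deviations from the group mean, ran from 0.837 to 0.992. Without P36 ileum replicate 3 they ran from 0.741 to 0.983. These libraries share mice and the correlations are a description. Over the 8 P6 libraries the same correlations ran from -0.937, for *Mmp7* with *Itln1*, to 0.713.

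The 2 highest mice at P36 were the males. In the P36 ileum both male libraries lay above both female libraries for all 6 genes, as 20.8% of all tested genes did. In the P36 jejunum they did so for 5 genes, *Mmp7* being the exception, as 21.9% of all tested genes did. The 5 genes that did so in both regions compare with 7.89% of all tested genes. On counts summed per mouse, 2 male against 2 female, the log2 difference ran from 0.57 (*Pla2g2a* and *Mmp7*) to 1.15 (*Ang4*). None of the 6 passed, at adjusted p from 0.167 to 0.54 by edgeR, where 0.0375% of genes passed, although all 6 had an unadjusted p below 0.05 (0.000264 to 0.0252), as did 1151 of all 13332 genes tested. At P6 none of the 6 genes had both male libraries above both female libraries in either region. Both female libraries were on top for 3 genes in the P6 jejunum (*Lyz1*, *Ang4* and *Defa24*). In the P6 ileum they were on top for 2 (*Ang4* and *Pla2g2a*). The share of all tested genes is not given for P6. The comparison of the sexes was made after the values were seen.

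**Figure D4:**
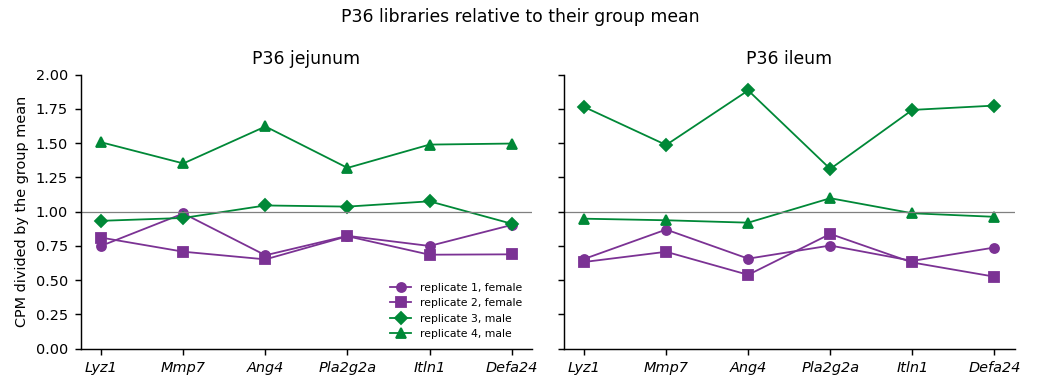
CPM of each gene in the P36 libraries divided by the mean of its group, by region. Each line joins the 6 genes of 1 library and is coloured by sex. The lines run nearly parallel, with replicate 4 highest in the jejunum and replicate 3 highest in the ileum, both from male mice.

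Markers of other epithelial cells did not all follow this. In P36 ileum replicate 3, the 9 stem and crypt markers summed to 2102 CPM, the highest of the P36 libraries, while the 9 goblet cell markers summed to 13799 CPM, the lowest of the 4 P36 ileal libraries. The part of crypt yield in the high values of that library was not tested. With age, 24.7% of all tested genes passed as higher at P36 and 26.9% as lower for the jejunum, and 25.5% and 30.1% for the ileum. Against this background, all 9 goblet cell genes passed as higher at P36 in both regions (medians of 2.14 and 2.00 on the log2 scale). Of the 9 stem and crypt genes, 3 passed as higher and 2 as lower in the jejunum, and 5 as higher and 1 as lower in the ileum. None of those 9 was called. The median log2 fold changes of the 6 genes with age (5.08 jejunal, 5.16 ileal) compare with -0.01 and -0.03 over all tested genes.

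The other alpha-defensins rose as *Defa24* did, each with a larger log2 fold change, a difference that was not tested. Of 57 symbols listed, 26 were in the files and 18 could be tested. All 18 were called higher at P36 in both regions, against 7.86% (jejunum) and 6.40% (ileum) of all tested genes. Their median log2 fold changes were 8.02 (jejunum) and 7.16 (ileum). Both medians stayed at these values with the genes that had no P6 count in a region set at their lower bound, taken from 3 counts over the group. Those genes already lay below the medians, so a lower value could not have moved them. Passing the filter at all depended on the P36 level for these genes. The most abundant at P36 was *Gm15284*, with jejunal and ileal means of 922 and 1571 CPM, followed by *Defa22*, *Defa21*, *Gm14851* and *AY761184*. *Gm14851* had the largest jejunal change of the 18, at 11.67 on the log2 scale. The smallest in both regions was *Defa17*, at 5.12 and 4.13, above the 4.91 and 3.82 of *Defa24*. In the P6 ileum 7 of the 18 passed as higher than in the jejunum, against 14.8% of all tested genes. At P36 only *Defa21* (1.64, adjusted p = 0.0175 by edgeR) and *Gm15308* (4.45, adjusted p = 0.000507) did, against 7.80% of all tested genes. Many of these genes are near-identical, so single values are uncertain. Another 6 listed defensins, *Defa4* and *Defa6* among them, had no count in any library.

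**Figure D5:**
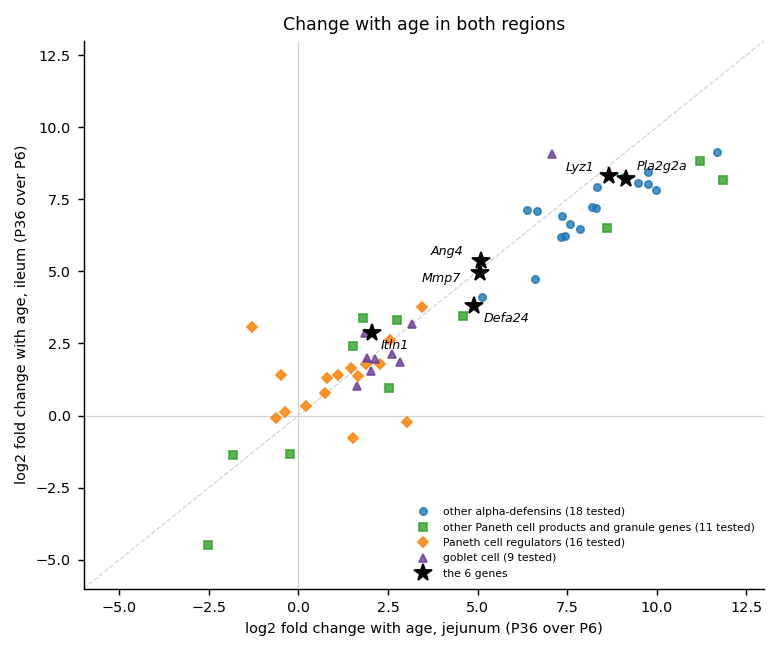
Log2 fold change from P6 to P36 in the jejunum (horizontal) against the ileum (vertical) for the 6 genes and for the tested genes of 4 lists. The dashed line marks equal change, and 2 defensins without counts in a P6 group are drawn at their fitted values. The alpha-defensins lie at 5.12 or more in the jejunum and the goblet cell genes mostly near 2. *Itln1* is drawn from the P6 mice of both label prefixes together, which differed widely.

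Other products of Paneth cells were less uniform. Of 11 genes, 8 passed as higher at P36 in each region, against 24.7% and 25.5% of all tested genes. The C-type lectins *Reg3b* and *Reg3g*, which enterocytes make as well, rose most, with jejunal log2 fold changes of 11.86 and 11.20 and ileal ones of 8.18 and 8.82. *Mptx2*, a pentraxin made by Paneth cells, rose by 4.59 and 3.46, and *Cd24a*, a surface marker of Paneth and crypt base cells, by 1.52 and 2.40. *Reg3a* rose by 8.63 and 6.51. Against this, *Reg4*, in the jejunum, fell by 1.83, and in the ileum it fell by 1.36. *Slc30a2*, a zinc transporter of Paneth cell granules, fell by 1.34 in the ileum, and its jejunal change of -0.23 did not pass (adjusted p = 0.399). *Mptx1* fell by 4.50 in the ileum, and its jejunal change of -2.53 did not pass (adjusted p = 0.0698 by edgeR).

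Regulators of the lineage mostly changed by smaller amounts, with median log2 fold changes of 1.29 (jejunum) and 1.39 (ileum). In each region 3 were called higher at P36, against 7.86% (jejunum) and 6.40% (ileum) of all tested genes. Of 16, 10 passed as higher and 2 as lower at P36 in the jejunum, and 12 as higher in the ileum, against the same shares of all tested genes. The 5 most abundant at P36 were *Xbp1*, *Fzd5*, *Tcf7l2*, *Atg16l1* and *Ern2*. *Xbp1*, a transcription factor of the secretory stress response, rose by 0.73 and 0.79 (log2). *Fzd5*, the Wnt receptor needed for Paneth cell maturation, rose by 1.47 and 1.65, and *Tcf7l2*, the crypt effector of Wnt signalling, by 2.27 and 1.78. *Ern2*, which serves secretory cells, rose by 1.66 and 1.37. *Atg16l1*, an autophagy gene, rose by 0.32 in the ileum, and its jejunal change of 0.21 did not pass (adjusted p = 0.189 by edgeR). Among the less abundant regulators, *Bhlha15* rose by 3.45 and 3.76 and *Gfi1* by 2.56 and 2.62. The 2 that passed as lower in the jejunum were *Ephb3* (-1.30) and *Sox9* (-0.64). In the ileum *Ephb3* rose by 3.08, and *Sox9* did not pass.

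Paralogues of the 6 genes did not share one direction. *Pla2g5*, the neighbour of *Pla2g2a*, had 3 counts over all 8 P6 libraries, all of them ileal, and means of 22.3 CPM in the P36 jejunum and 37.6 CPM in the P36 ileum. It passed as higher at P36 in both regions (adjusted p = 4.77e-09 and 3.69e-09 by edgeR). In the P36 libraries it stood at 0.395 to 0.854 of the *Pla2g2a* level. Strand-specific counting and the absence of shared 100-base windows separate the 2 genes. *Pla2g2f* rose by 3.81 and 3.94 and *Pla2g10* by 2.10 and 2.05. *Ang* fell by 2.10 and 1.17 and *Rnase4* by 2.31 and 1.67 while *Ang4* rose, and these 2 genes share their first exons. *Lyz2*, the lysozyme of macrophages, measured 0.735 to 4.83 CPM as a group mean and passed as higher only in the jejunum (2.71, adjusted p = 0.00884 by edgeR). Of the *Mmp7* paralogues, *Mmp15* fell by 2.26 (adjusted p = 0.00381) and *Mmp14* by 1.01 (adjusted p = 0.0236) in the jejunum alone, and *Mmp28* rose by 2.42 there (adjusted p = 7.48e-06, all by edgeR). *Mmp9* fell by 3.71 in the ileum alone (adjusted p = 0.0128 by edgeR), where 1 of the 4 P6 libraries held most of it, and *Mmp2* was above 1 CPM in the same P6 group but was not tested. *Pla2g12a*, *Pla2g12b* and *Rnase1* passed in neither region with age.

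The genes whose log2 CPM most resembled each of the 6 over the 16 libraries are named here by their Pearson correlation. *Lyz1* was most like *Pla2g2a* (r = 0.997), *Gm15292* and *Gmds*. *Pla2g2a* was most like *Lyz1*, *Gm15284* and *Pla2g5* (r = 0.993 or more for each). *Mmp7* was most like *Defa5* (r = 0.989), *Gm15315* and *Fam117b*, *Defa24* like *Defa17* (r = 0.990), *Sec11c* and *Ctsc*, and *Ang4* like *Pla2g2a* (r = 0.980), *Lyz1* and *Lgals2*. *Itln1* stood apart, with *Rnps1* (r = 0.968), *Dynlt1a* and *Dynlt1b* as the nearest. As deviations from the 4 group means, *Lyz1* was most like *Retnlb* (r = 0.835), *Bhlha15* and *S100a1*. *Itln1* was most like *Paqr4* (r = 0.980), *Cd14* and *Gm8801*, and *Pla2g2a* was most like *Ang4* (r = 0.813). The same measure placed *Zfand1* (r = 0.835) nearest *Ang4*, *1700086O06Rik* (r = 0.948) nearest *Mmp7* and *Ccny* (r = 0.949) nearest *Defa24*. The libraries share age, region, depth and mouse, and these values are descriptions.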

How the data were processed

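Per the labels and methods, the authors used Trimmomatic (0.38) for adapter removal, STAR (2.5.3 in the submitters' notes) for alignment to mm10, and counted fragments per gene with featureCounts (Subread 1.6.3, reverse-stranded, uniquely mapped). The deposited values are raw counts. The 6 genes and the gene lists were chosen with earlier results of these data known. With edgeR (4.0.16) in R (4.3.3), genes were filtered by filterByExpr, scaled by TMM, and fitted as 4 group means over all 16 libraries with the quasi-likelihood test. The label prefixes and the sexes were compared on counts summed per mouse. DESeq2 (1.42.0) was an alternative, and the steps were tested on simulated data. Jejunum and ileum of a mouse were paired by the mouse label: deviations from the group mean correlated at 0.157 to 0.391 within a mouse and at -0.106 and -0.101 on average between mice. Genes named are the 6, up to 5 of each list with the highest P36 level, paralogues of the 6 with a group mean of at least 1 CPM, and the 3 most similar genes by log2 CPM (prior count of 2). Others named were chosen after their values were seen. The SE and intervals of the group comparisons come from the fit over all 16 libraries, with the spread pooled over the 4 groups. They take no account of the pairing by mouse. For *Itln1* the pooled spread includes its split at P6, also where the P36 regions are compared.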

Additional observations from a re-analysis of the deposited data

Results flagged for a closer look

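In the 24 sets of 4 libraries formed by the 6 genes and 4 groups, 2 had 1 library far from the other 3 by Dixon's test, which chance does in about 1 set in 20. *Defa24* was 21.2 CPM in P6 ileum replicate 4, against 2.82 to 4.39 CPM in the others. *Ang4* was 4.88 CPM in P6 ileum replicate 3, below the 9.12 to 9.68 CPM of the others.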

How the results depend on the processing

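The 5 calls with age in each region were kept in every alternative. *Itln1* was called as well by DESeq2 in the ileum. Without a minimum fold change, 3 genes counted as higher in the ileum at P6 and 1 at P36, and leaving out 1 library gave 0 to 1 calls at P6. At adjusted p below 0.05, the P6 region count of 3 became 0 without the low-count filter, 1 with only prefix L41800, 0 with only L42150 and 1 with only the 8 libraries compared, and 0 to 3 with a library left out (unadjusted p was below 0.05 by edgeR for 4, 3, 2 and 2 genes in the first 4). The P36 region count of 1 became 2 with each mouse as a block, 2 with only the 8 libraries compared, and 0 to 1 with a library left out. The number of genes that differed between the prefixes, 90, was 0 with ileum libraries only (601 at unadjusted p below 0.05), 693 with jejunum libraries only and 174 to 4235 with a mouse left out, highest without replicate 2.

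Signs turned only for log2 differences that did not pass. *Ang4* between regions at P6 was 0.26 with library totals, 0.087 with the block and -0.34 to 0.17 with a library left out, and at P36 -0.28 to 0.57. *Itln1* between regions at P6 was 0.15 with the block, 0.69 with only L42150 and -1.14 to 0.50 with a library left out. With libraries left out, the interactions ran from -0.22 to 0.62 (*Ang4*), -1.52 to 0.013 (*Defa24*), -0.018 to 1.63 (*Itln1*, and -0.20 with only L42150) and -0.51 to 0.33 (*Mmp7*). Between prefixes, *Lyz1* was 0.085 in the jejunum and -0.31 to 0.062 with a mouse left out, and *Ang4* -0.26 to 1.27. *Mmp7* between the prefixes passed with jejunum libraries only (1.68, adjusted p = 0.0095 by edgeR). With a mouse left out its difference was 1.18 to 1.56. The *Defa24* difference was 1.87 without replicate 2, which left a single L42150 mouse. The cause of these changes was not tested. Leaving out P36 ileum replicate 3 and P6 ileum replicate 4 together was chosen after seeing the data.

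Depth limits *Pla2g2a* at P6, where 3 counts are 0.129 to 0.163 CPM.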
